A study of Mus musculus with 6 samples.

Results

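The transcripts of Trp53, which encodes the tumour suppressor p53, and of 9 p53 target genes were compared between 2 groups of mouse kidney cells. The 9 are grouped here as targets outside apoptosis, a label that does not exclude a part in apoptosis. The 10 genes are Trp53, Mdm2, Ccng1, Ei24, Plk2, Rrm2b, Sesn2, Zmat3, Phlda3 and Trp53inp1. They were chosen by name, but with earlier results of these data known, so their counts set against all genes are a description. Their transcripts were found by matching the mouse transcript IDs of the deposited table to GENCODE M21. All 10 were found, among 11236 gene symbols in all, and all 10 were among the 10405 genes with a mean of at least 1 that were tested.

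The cells are BUMPT, an established line grown from the epithelium of the mouse renal proximal tubule. One group is labelled tRF-Val for the transfer RNA fragment tRF-Val-TAC-004, which comes from a valine tRNA, and the other NC; each has 3 libraries of total RNA, and no other genotype or agent is named. The labels spell out neither NC nor whether the fragment was added or blocked, and give no dose, time or culture temperature. The stated purpose was to find a target of the fragment in apoptosis.

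As background, p53 is a transcription factor that is held at low levels by the ubiquitin ligase Mdm2, itself a product of a p53 target gene, so that the pair forms a feedback loop. After DNA damage or other stress p53 is released from Mdm2 and raises genes of cell cycle arrest, DNA repair, antioxidant defence and feedback as well as genes of apoptosis. In the proximal tubule this response is known from ischaemic and toxic injury. BUMPT cells came from a mouse that carries a temperature-sensitive viral large T antigen, a protein that binds p53, and p53 activity in such lines can depend on whether the antigen is active.

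Values are abundances per transcript that the authors scaled to the library, added here over the listed transcripts of each gene. Transcripts that were not listed are not in these sums. The deposited table does not say whether they are FPKM or TPM, both of which are per transcript length, and the number of reads is unknown. Summed over mouse transcripts they came to 421202 to 444539 in tRF-Val and 387611 to 389669 in NC. NC 3 stood apart, with a Pearson r across genes of 0.903 and 0.915 to NC 1 and NC 2, against 0.974 between those libraries, and with 17.5% mitochondrially encoded transcripts against 3.16% to 6.58% in the other 5 libraries. Nothing in the labels ties the 3 libraries of a group to separate cultures. P-values therefore speak only of the spread from library to library, and that spread may be technical. Of the markers that check the label, 3 of 14 proximal tubule markers (Aqp1, Pax8 and Pax2) and 6 of 6 epithelial markers were listed, while Lrp2 and Cubn, which encode the endocytic receptors of that segment, were not among those listed. The summed proximal tubule markers were at 77.7 to 116 in tRF-Val and 76.4 to 127 in NC, and the summed epithelial markers at 762 to 893 in tRF-Val and 422 to 652 in NC. The 4 of 8 leukocyte markers listed summed to at most 5.02 in tRF-Val and 4.66 in NC, 2 of 6 fibroblast markers to at most 1.76 and 1.26, and Cdh5 was the 1 endothelial marker of 5, at 2.72 to 5.02 in tRF-Val and 6.25 to 8.03 in NC; their part in the results was not tested. The extraction protocol in the labels speaks of joint tissue, but 0 of 5 markers of cartilage and synovium were listed.

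The 10 genes showed no common direction. Ei24 was about 2-fold as abundant in tRF-Val as in NC (ratio of means 1.95), and Phlda3 and Mdm2 also had higher means there. Plk2, Rrm2b, Ccng1, Zmat3 and Trp53inp1 were lower in every tRF-Val library than in every NC library, at 0.479 to 0.791 of the NC mean. Trp53 itself overlapped between the groups. By limma's moderated test with Benjamini-Hochberg adjustment over all 10405 genes, 0 of the 10 passed at 0.05, where 0.259% of all genes did, 0.0577% higher and 0.202% lower (6 and 21 genes). The counts were 15 and 23 with libraries scaled to a common median, 22 and 186 with libraries rescaled without mitochondrial transcripts, and 284 and 309 without NC 3. They were 2 and 3 with a pseudocount of 0.1 and 0 and 0 with the replicate number as a block. Without tRF-Val 2 they were 0 and 4, without tRF-Val 3 0 and 4, without NC 1 1 and 3, and without NC 2 0 and 6. At an unadjusted p under 0.05 there were 5 of 10, 1 higher and 4 lower, against 27.8% of all genes, 12.2% higher and 15.6% lower. In 7 of 10 there was no overlap between the groups, 2 higher and 5 lower, against 42.5% of all genes, 20.3% higher and 22.1% lower. In RNA from whole cultures, fewer cells of a kind and less RNA per cell cannot be told apart. The median log2 fold change of the 10 was -0.41, against 0.01 over all genes tested. With transcript length and GC content corrected it was -0.039, and -0.14 without NC 3 as well. All fold changes are of tRF-Val over NC and were taken from log2(value + 1), so those of genes with low values are understated.

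**Figure D1:**
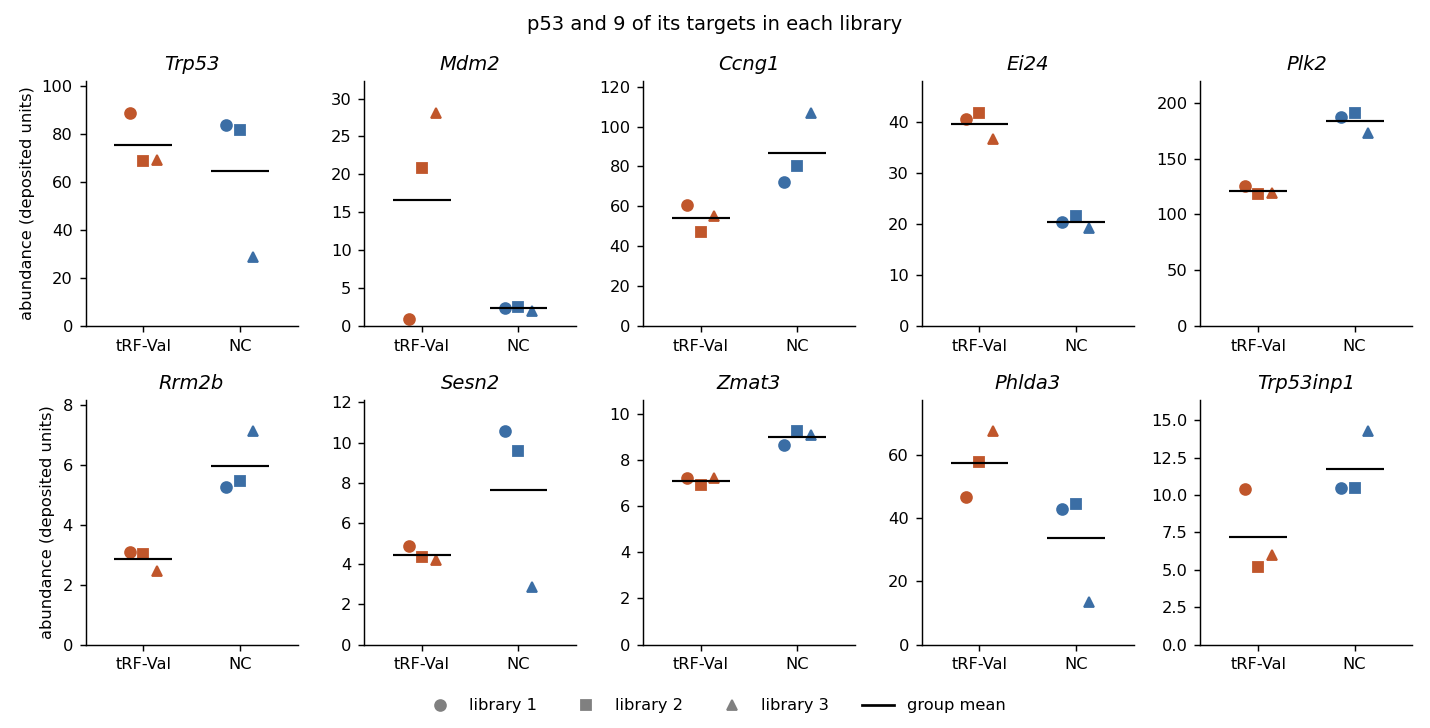
Abundance of each gene (vertical axis, deposited units, from 0) in the 3 tRF-Val and 3 NC libraries, with a symbol per library number and a bar at the group mean. Ei24 and Phlda3 are higher and Plk2, Ccng1, Rrm2b, Zmat3 and Trp53inp1 lower in every tRF-Val library, while Mdm2 splits the tRF-Val libraries and NC 3 is apart from the other NC libraries in Trp53, Sesn2 and Phlda3.

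Trp53 (ENSMUSG00000059552.13) spans bases 69580359 to 69591873 of chromosome 11 (GRCm38, plus strand). Its summed abundance was 88.6, 68.6 and 69.0 across tRF-Val 1, 2 and 3, against 83.6, 81.4 and 28.7 across NC 1, 2 and 3. The groups overlapped, and NC 3 was lowest by far. The log2 fold change was 0.36, with a 95% interval of -0.67 to 1.39 (SE 0.42, limma adjusted p 0.594). Without NC 3 the sign turned, to -0.14 (adjusted p 0.503), so no direction can be given for p53 mRNA. Over 15 alternatives the adjusted p was between 0.289 and 0.969.

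The table listed 4 protein-coding transcripts of Trp53, which fall into 2 pairs by the splice acceptor of their last exon. Trp53-201 and Trp53-203 use the usual splice acceptor, while Trp53-202 and Trp53-206 use one that lies 96 bases upstream, which changes the carboxyl terminus; this alternatively spliced form of p53 is known from mouse. The coding ends of both forms are shown because the abundance was divided between them. They were read from GENCODE M21 transcripts on GRCm38, 5′ to 3′ on the plus strand. Lower case marks the end of the shared exon (chr11:69590742-69590762) and capitals the coding bases after the junction, 79 for the usual acceptor (chr11:69591350-69591428) and 52 for the upstream one (chr11:69591254-69591305).
Trp53-201: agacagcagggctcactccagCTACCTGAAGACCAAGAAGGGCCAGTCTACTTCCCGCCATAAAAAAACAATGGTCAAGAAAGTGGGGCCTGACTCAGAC
Trp53-202: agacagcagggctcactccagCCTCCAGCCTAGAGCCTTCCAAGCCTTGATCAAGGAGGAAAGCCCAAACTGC

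The annotated proteins have 387 residues for Trp53-201 and 378 for Trp53-202. The transcripts with the upstream acceptor held 59.1%, 20.0% and 51.2% of the Trp53 abundance across tRF-Val 1, 2 and 3, against 64.9%, 63.1% and 33.3% across NC 1, 2 and 3. The lowest share was that of tRF-Val 2, the next that of NC 3, and the groups overlapped. Abundance from the usual acceptor was 36.3, 54.9 and 33.7 across tRF-Val 1, 2 and 3 and 29.3, 30.1 and 19.2 across NC 1, 2 and 3, higher in each tRF-Val library than in each NC library. Of all genes tested, 20.3% were separate in that direction, but that share is of sums over all listed transcripts of a gene. It is not a share of parts of a gene, and the sum of Trp53 overlapped between the groups. The shares and the sums by acceptor are given as a description and were not tested. Tested alone, Trp53-201 and Trp53-203 had limma adjusted p of 0.354 and 0.591.

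Mdm2 (ENSMUSG00000020184.15, chromosome 10, 117688875 to 117710758, minus strand) encodes the ligase that marks p53 for degradation. Its abundance was 0.937, 20.8 and 28.1 across tRF-Val 1, 2 and 3, against 2.39, 2.56 and 1.99 across NC 1, 2 and 3. A pair of tRF-Val libraries was thus far above every NC library while tRF-Val 1 was the lowest of all 6. These values are sums of the 2 listed transcripts of 9 in M21, so they need not be the total of the gene. The group means were 16.6 ± 14.1 in tRF-Val and 2.31 ± 0.294 in NC (SD, n = 3 each), and the log2 fold change was 1.70 with a 95% interval of -0.73 to 4.13 (limma adjusted p 0.299). Without tRF-Val 1 the log2 fold change was 2.93 and passed (adjusted p 0.0238), without tRF-Val 2 or 3 it was 1.18 and 0.98, and over 15 alternatives the adjusted p reached 0.596. Whether Mdm2 passed was thus decided by 1 library.

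The table listed 2 of the 9 Mdm2 transcripts in M21, and they took turns. Mdm2-201 held 99.3%, 5.64% and 100% of the abundance across tRF-Val 1, 2 and 3, against 38.7%, 72.1% and 1.08% across NC 1, 2 and 3. The high value of tRF-Val 2 was nearly all Mdm2-202, at 19.7, and that of tRF-Val 3 all Mdm2-201, at 28.1. The pair shares 11 of 12 exons; Mdm2-202 has 46 more bases at the end of 1 exon, and its annotated reading frame starts 49 codons further on, so that 440 residues are left of 489. The amino-terminal part of Mdm2 is where it contacts p53. The coding bases between the start codons are shown, from Mdm2-201 on the minus strand of GRCm38, with both start codons in capitals, the first at chr10:117709778-117709780 and the second at chr10:117705161-117705163.
Mdm2-201: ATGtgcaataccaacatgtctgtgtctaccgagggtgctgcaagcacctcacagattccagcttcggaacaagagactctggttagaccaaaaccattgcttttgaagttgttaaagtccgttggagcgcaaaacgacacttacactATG

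**Figure D2:**
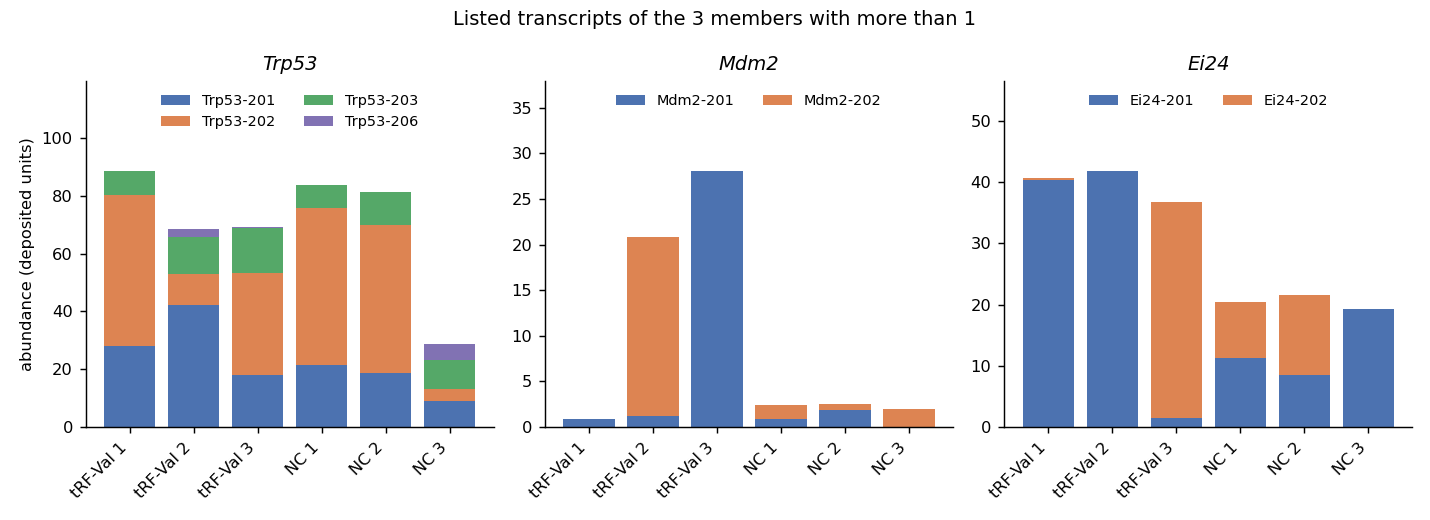
Abundance of each listed transcript of Trp53, Mdm2 and Ei24 (stacked, deposited units, from 0) in the 3 tRF-Val and 3 NC libraries. The transcript that holds most of a gene changes between libraries of 1 group, as for Mdm2, where tRF-Val 2 shows Mdm2-202 at 19.7 and tRF-Val 3 shows Mdm2-201 at 28.1.

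Ei24 (ENSMUSG00000062762.16, chromosome 9, 36779159 to 36797393, minus strand), a protein of the endoplasmic reticulum that acts in autophagy and was found as a gene induced by p53, had the smallest p of the 10 and ranked 59 among all genes. Its abundance was 40.6, 41.9 and 36.8 across tRF-Val 1, 2 and 3, against 20.4, 21.6 and 19.3 across NC 1, 2 and 3. Every tRF-Val library was above every NC library, and NC 3 was close to the other NC libraries. The means were 39.7 ± 2.64 in tRF-Val and 20.4 ± 1.13 in NC (SD, n = 3 each), the log2 fold change 0.93 (SE 0.13, 95% interval 0.60 to 1.25), and the limma adjusted p 0.0568, which missed the threshold. Over 15 alternatives the log2 fold change was between 0.68 and 0.98 and the adjusted p between 0.0336 and 0.228. It passed in 3 of these, without NC 3, after correction for transcript length and GC content, and with both. Its 2 listed transcripts, Ei24-201 and Ei24-202, encode the same 358 residues and differ in the first exon. Ei24-201 held 99.4%, 100% and 3.94% across tRF-Val 1, 2 and 3, against 55.3%, 39.2% and 99.9% across NC 1, 2 and 3. Tested alone, Ei24-201 had a log2 fold change of 0.29 and Ei24-202 of -0.56 (limma adjusted p 0.909 and 0.876). The difference between the groups was thus seen in their sum only. That sum covers 2 of the 9 Ei24 transcripts in M21, so it need not be the total of the gene.

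Ccng1 (chromosome 11, 40748552 to 40755311, minus strand) encodes cyclin G1, which brings a phosphatase to Mdm2. It was at 60.8, 47.1 and 55.1 across tRF-Val 1, 2 and 3, against 72.3, 80.4 and 106.8 across NC 1, 2 and 3. Each tRF-Val library was below each NC library, and NC 3 was the highest of the 6. The log2 fold change was -0.65 (SE 0.19, limma adjusted p 0.113), and -0.23 (adjusted p 0.253) with length and GC content corrected and -0.18 without NC 3 as well. Zmat3 (chromosome 3, 32334792 to 32366014, minus strand), a zinc finger protein that binds RNA, was at 7.21, 6.93 and 7.21 across tRF-Val 1, 2 and 3 and at 8.66, 9.25 and 9.09 across NC 1, 2 and 3. Its log2 fold change was -0.30 (adjusted p 0.219), and it turned to 0.17 (adjusted p 0.428) after correction for length and GC content.

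Plk2 (chromosome 13, 110395046 to 110400844, plus strand), a kinase of the polo family that acts in centriole duplication and stress signalling, was the most abundant of the 10 in both groups. It was at 125, 118 and 119 across tRF-Val 1, 2 and 3, against 187, 191 and 173 across NC 1, 2 and 3. The groups were well separated, with means of 121 ± 3.76 in tRF-Val and 184 ± 9.64 in NC (SD, n = 3 each). The log2 fold change was -0.60 (SE 0.12, 95% interval -0.90 to -0.30, limma adjusted p 0.0858). It passed without NC 3 (-0.64, adjusted p 0.0352) and with libraries rescaled without mitochondrial transcripts (-0.85, adjusted p 0.0426), and over 15 alternatives the adjusted p reached 0.294. That rescaling also moved the median of all genes tested, to -0.20 from 0.01.

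Rrm2b (chromosome 15, 37923952 to 37961318, minus strand), the p53-inducible subunit of ribonucleotide reductase, which supplies nucleotides for DNA repair and for mitochondrial DNA, was at 3.07, 3.01 and 2.46 across tRF-Val 1, 2 and 3, against 5.27, 5.47 and 7.11 across NC 1, 2 and 3. Its ratio of means, 0.479, was the lowest of the 10 with all libraries. Without NC 3 that ratio was 0.531, and Sesn2 was lowest at 0.442. The log2 fold change of Rrm2b was -0.85 (SE 0.18, 95% interval -1.29 to -0.40, limma adjusted p 0.0861). No alternative brought it past the threshold (adjusted p 0.05004 to 0.294), and correction for length and GC content reduced it to -0.31. Sesn2 (chromosome 4, 132492032 to 132510501, minus strand) encodes sestrin 2, a leucine sensor that restrains mTORC1 and acts in antioxidant defence. It was at 4.86, 4.33 and 4.16 across tRF-Val 1, 2 and 3, against 10.6, 9.58 and 2.86 across NC 1, 2 and 3. NC 3 was lower than every tRF-Val library, while NC 1 and NC 2 were far above all of them, and the log2 fold change over all libraries was -0.52 (adjusted p 0.449). Without NC 3 it was -1.02 and passed (adjusted p 0.0353), with a range of 0.0353 to 0.742 over 15 alternatives.

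Phlda3 (chromosome 1, 135766119 to 135769136, plus strand) encodes a small protein that competes with Akt for membrane lipids. It was at 46.7, 57.7 and 67.3 across tRF-Val 1, 2 and 3, against 42.9, 44.4 and 13.4 across NC 1, 2 and 3. Every tRF-Val library was above every NC library, though tRF-Val 1 only by a little. The log2 fold change was 0.91 (95% interval -0.22 to 2.04, limma adjusted p 0.245) and 0.37 without NC 3 (adjusted p 0.183). With length and GC content corrected it was 0.22 (adjusted p 0.471), and 0.10 without NC 3 as well. Trp53inp1 (chromosome 4, 11156431 to 11174379, plus strand), a nuclear protein that assists p53 and also acts in autophagy, was at 10.4, 5.21 and 6.01 across tRF-Val 1, 2 and 3, against 10.5, 10.5 and 14.3 across NC 1, 2 and 3. Each tRF-Val library was below each NC library, though tRF-Val 1 only by a little. Its log2 fold change was -0.67 (adjusted p 0.179), and -0.10 (adjusted p 0.773) with length and GC content corrected and -0.11 without NC 3 as well.

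Of the 51 M21 transcripts of the 10 genes 15 were listed, and 7 of the genes had a single one. All 15 were tested alone and 0 passed by limma, with 3 at an unadjusted p under 0.05 and the smallest adjusted p, 0.0904, in Plk2-201; over all transcripts 1.14% passed (0.3% higher and 0.839% lower) and 19.4% had such a p. Exons of Ei24 and Rrm2b overlap those of genes on the other strand by 62 and 260 bases, and the kit marks strand, per the labels, but it was not stated whether the quantification used it.

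In order of mean abundance in tRF-Val, the genes ran Plk2, Trp53, Phlda3, Ccng1, Ei24, Mdm2, Trp53inp1, Zmat3, Sesn2 and Rrm2b, at 121, 75.4, 57.2, 54.3, 39.7, 16.6, 7.20, 7.12, 4.45 and 2.85. In NC the order was Plk2, Ccng1, Trp53, Phlda3, Ei24, Trp53inp1, Zmat3, Sesn2, Rrm2b and Mdm2, at 184, 86.5, 64.6, 33.6, 20.4, 11.7, 9.0, 7.67, 5.95 and 2.31. Plk2 was above every other member in each of the 6 libraries. Neighbours in the order whose library ranges overlapped were Phlda3 and Ccng1, Mdm2 and Trp53inp1, and Trp53inp1 and Zmat3 in tRF-Val. In NC they were Ccng1 and Trp53, Trp53 and Phlda3, Phlda3 and Ei24, Zmat3 and Sesn2, and Sesn2 and Rrm2b.

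The place of NC 3 followed the base composition of the transcripts. Trp53, Sesn2 and Phlda3, with GC contents of 54.0%, 58.7% and 62.6%, were in NC 3 at 0.348, 0.285 and 0.307 of the mean of NC 1 and NC 2. Ccng1, Rrm2b and Trp53inp1, with GC contents of 40.8%, 39.4% and 38.8%, were in NC 3 at 1.40, 1.32 and 1.36 of that mean. The other 4, Mdm2, Plk2, Zmat3 and Ei24, had 46.2% to 49.6% and ratios of 0.804 to 1.02. The same held over all genes: in the decile of genes with the lowest GC content (median 40.2%) NC 3 differed from NC 1 and NC 2 by a median of 0.35 on the log2 scale, and in the decile with the highest (median 59.6%) by -1.09. Ei24, Plk2 and Zmat3, whose groups were separate with little spread, are thus genes in which NC 3 sat near its group.

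Fold changes between the groups also went with transcript length. The median log2 fold change was 0.61 in the decile of genes with the shortest transcripts (median 846 bases) and -0.42 in the decile with the longest (median 7340 bases). Phlda3, of 1435 bases, had 0.91 where its decile had a median of 0.42, and Trp53, of 1799 bases, had 0.36 where its decile had 0.25. At the other end Zmat3, of 7797 bases, had -0.30 where its decile had -0.42, and Trp53inp1, of 5404 bases, had -0.67 where its decile had -0.33. Ei24, of 2249 bases, was 0.75 above the median of its decile, with 95.7% of that decile below it. Plk2, of 2800 bases, was 0.54 below the median of its decile, with 13.6% of the decile lower still, and Rrm2b, of 4561 bases, was 0.60 below, with 13.2% lower. Once length and GC content were corrected for, the median of the 10 was -0.039.

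**Figure D3:**
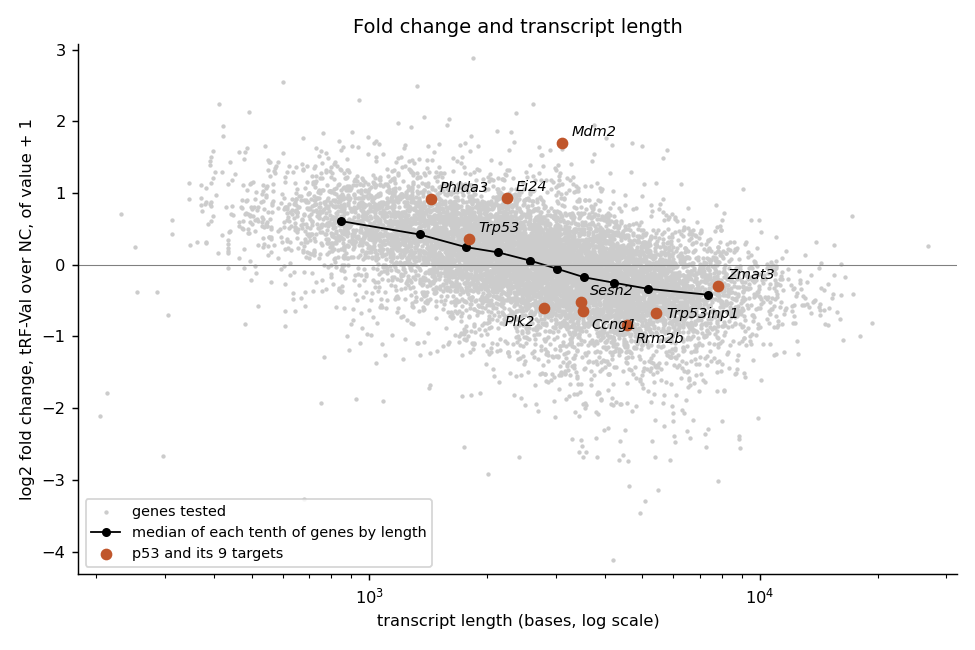
Log2 fold change of tRF-Val over NC (vertical axis, of value + 1) against transcript length (horizontal axis, bases, log scale) for the 10405 genes tested, with the median of each decile of genes by length and the 10 genes named. Mdm2, Ei24 and Phlda3 lie furthest above the line of medians, and Plk2, Ccng1, Rrm2b, Sesn2 and Trp53inp1 below it.

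Leaving out NC 3, 3 of the 10 passed, Ei24 higher and Plk2 and Sesn2 lower, against 5.71% of all genes in that fit. With length and GC content corrected 1 passed, Ei24, against 0.538% of all genes, and with both steps Ei24 (0.92, adjusted p 0.0360) and Sesn2 (-0.84, adjusted p 0.0413) passed, against 1.1% of all genes. With libraries rescaled without mitochondrial transcripts Plk2 passed, against 2% of all genes. Without tRF-Val 1 Mdm2 passed, against 0.422%. Each of the other alternatives brought 0 of the 10 past the threshold by limma. Among these, the share of all genes called was 0.0481% with a pseudocount of 0.1, 0.258% with no filter, 0.254% with a mean of at least 2, 0.365% with libraries scaled to a common median, 0.452% without trend and robust moderation and 0% with the replicate number as a block. It was 0.0384% without tRF-Val 2, 0.0384% without tRF-Val 3, 0.0386% without NC 1 and 0.0578% without NC 2.

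**Figure D4:**
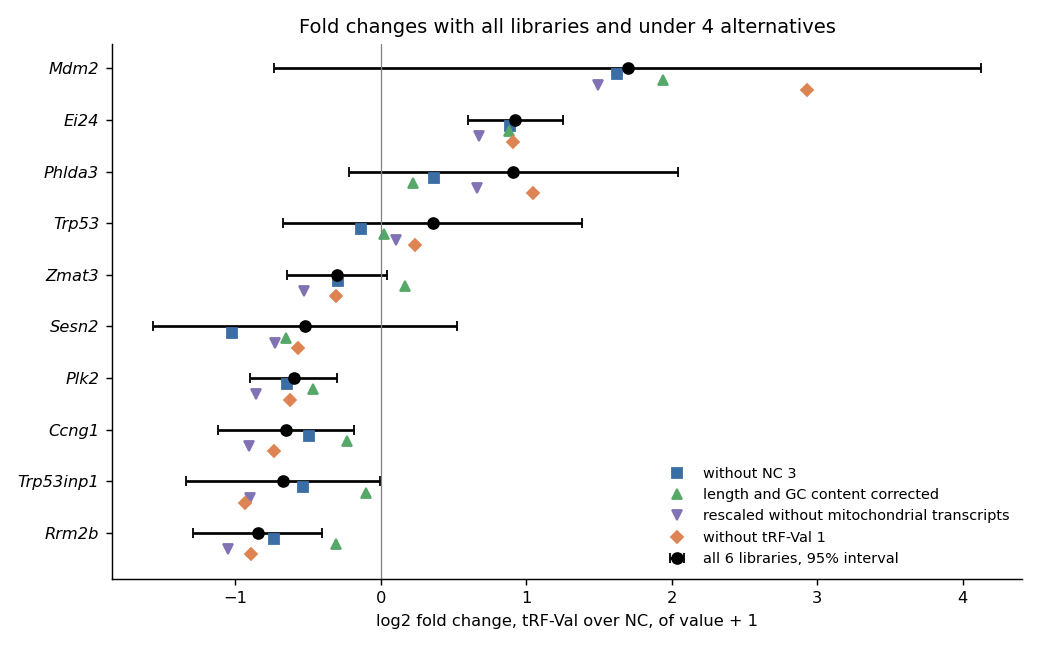
Log2 fold change of tRF-Val over NC (horizontal axis, of value + 1) of each gene over all 6 libraries, with its 95% interval, and under 4 alternatives. Ei24 stays between 0.68 and 0.93 in the settings drawn, Mdm2 reaches 2.93 without tRF-Val 1, Trp53 changes sign without NC 3, and Zmat3 changes sign with length and GC content corrected.

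The promoters of 7 of the 10 genes, all but Rrm2b, Zmat3 and Trp53inp1, were matched by symbol in RefSeq sequences on GRCm38.p6, from 250 bases before to 50 after the start site. They were searched on both strands for the p53 half-site, the consensus of which a full p53 site holds a pair, and which reads the same on either strand. It was found once each in Trp53, Mdm2, Ccng1 and Ei24. In those of Plk2, Sesn2 and Phlda3 it was not found, and 8.36% of all 32851 promoter windows held at least 1. A match is a description of the letters and not evidence of binding, and known p53 sites of several of these genes lie in introns, outside the window. The 4 windows are shown 5′ to 3′ on the strand of the gene, with the match in capitals. It starts 75 bases before the start site in Trp53 (chr11:69580109-69580408), 186 in Mdm2 (chr10:117710709-117711008), 185 in Ccng1 (chr11:40755237-40755536) and 10 in Ei24 (chr9:36797285-36797584).
Trp53: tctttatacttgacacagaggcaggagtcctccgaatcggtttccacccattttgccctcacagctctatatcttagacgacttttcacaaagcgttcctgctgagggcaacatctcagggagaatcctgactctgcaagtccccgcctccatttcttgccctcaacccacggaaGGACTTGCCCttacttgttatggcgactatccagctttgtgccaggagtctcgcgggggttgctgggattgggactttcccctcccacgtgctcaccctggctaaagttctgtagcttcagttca
Mdm2: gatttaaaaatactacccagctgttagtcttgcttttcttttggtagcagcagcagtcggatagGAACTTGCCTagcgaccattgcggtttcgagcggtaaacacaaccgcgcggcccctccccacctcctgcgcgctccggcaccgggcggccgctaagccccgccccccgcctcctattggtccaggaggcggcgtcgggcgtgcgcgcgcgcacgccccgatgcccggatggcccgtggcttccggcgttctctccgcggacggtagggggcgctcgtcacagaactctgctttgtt
Ccng1: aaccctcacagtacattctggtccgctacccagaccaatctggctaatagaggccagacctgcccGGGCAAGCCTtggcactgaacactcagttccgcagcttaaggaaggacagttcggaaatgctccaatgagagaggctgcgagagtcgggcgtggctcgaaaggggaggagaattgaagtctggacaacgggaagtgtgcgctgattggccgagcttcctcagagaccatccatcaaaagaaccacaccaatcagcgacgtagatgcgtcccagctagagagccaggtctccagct
Ei24: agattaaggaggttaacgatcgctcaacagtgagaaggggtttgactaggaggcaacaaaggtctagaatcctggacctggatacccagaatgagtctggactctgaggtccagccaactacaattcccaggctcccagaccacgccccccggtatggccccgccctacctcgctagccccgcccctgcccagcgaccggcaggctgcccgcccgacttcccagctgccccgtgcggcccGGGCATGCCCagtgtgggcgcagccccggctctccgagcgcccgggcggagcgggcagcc

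The 4 genes with a half-site in the window did not share a direction. Ei24 and Mdm2 had positive log2 fold changes of 0.93 and 1.70, Ccng1 had -0.65, and Trp53 had 0.36 with all libraries and -0.14 without NC 3. The half-site of Ei24, with the core CATG, was the one nearest to the start site of its RefSeq window. In M21 Ei24-201 starts at 36797393 and Ei24-202 at 36797273, so the distance given does not hold for either listed transcript.

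Other genes of the pathway were read from the same fit. Of 22 genes that act on p53, 22 were tested and 0 passed by limma, with 2 higher and 4 lower at an unadjusted p under 0.05 (all genes, 12.2% and 15.6%) and a median log2 fold change of -0.13. The smallest p was that of Atm, the kinase that senses DNA double-strand breaks and phosphorylates p53. It was at 1.25, 1.02 and 1.83 across tRF-Val 1, 2 and 3, against 5.58, 5.18 and 6.58 across NC 1, 2 and 3, a log2 fold change of -1.53 (adjusted p 0.0547). The groups were far apart, and the transcripts are long, with a mean of 8638 bases. Trp53bp1, a mediator of break repair, was at 1.61 ± 0.223 in tRF-Val and 3.25 ± 0.202 in NC (SD, n = 3 each), and Ep300, which acetylates p53, at 5.70 ± 0.733 and 9.93 ± 1.07, with adjusted p of 0.0887 and 0.0899; their transcripts are of 9530 and 9566 bases, also among the longest.

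Among other p53 targets outside apoptosis, 0 of 32 tested genes passed by limma, where 0.259% of all genes did. At an unadjusted p under 0.05 there were 1 higher and 3 lower, below the shares of all genes (12.2% and 15.6%), and their median was 0.07. In arrest and feedback the smallest p was that of Ckap2, a spindle protein, at 26.7 ± 4.50 in tRF-Val and 42.8 ± 11.5 in NC (SD, n = 3 each, adjusted p 0.148), followed by Trp53i13 and Gadd45a (adjusted p 0.234 and 0.315). Cdkn1a, which encodes the inhibitor p21 and is the best known arrest target, was named after its values were seen. It was at 51.9, 58.7 and 59.7 across tRF-Val 1, 2 and 3, against 54.9, 60.4 and 37.1 across NC 1, 2 and 3, so its groups overlapped. In DNA repair, Polh and Polk, polymerases that copy past lesions, were at 3.46 ± 0.862 and 2.24 ± 0.322 in tRF-Val and at 7.10 ± 1.05 and 5.40 ± 2.77 in NC (SD, n = 3 each), with adjusted p of 0.0915 and 0.135, and Fancc had 0.328. In metabolism and secretion the 3 with the smallest p were Prkab1, a subunit of AMPK, Sco2, which assembles cytochrome oxidase, and Cd82, a tetraspanin, with log2 fold changes of 0.31, 0.71 and -0.57 and adjusted p of 0.179, 0.213 and 0.279.

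Of p53 targets listed here under apoptosis, 10 of 11 were tested and 0 passed by limma, where 0.259% of all genes did. At an unadjusted p under 0.05 there were 1 higher and 2 lower, near the shares of all genes (12.2% and 15.6%). Fas, the death receptor, was at 22.6, 19.3 and 20.9 across tRF-Val 1, 2 and 3, against 9.72, 10.1 and 8.15 across NC 1, 2 and 3 (log2 fold change 1.09, adjusted p 0.0568). Like Ei24 it was about 2-fold as abundant in each tRF-Val library (ratio of means 2.25). Fas transcripts have a mean of 1412 bases. The median log2 fold change of their length decile was 0.42, against 0.17 for that of Ei24. Apaf1 had a log2 fold change of -1.13 and Ccnk, a cyclin gene that the list includes, of -0.38, with adjusted p of 0.0568 and 0.152. Apaf1 transcripts have a mean of 6501 bases, in the length decile with a median of -0.42.

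**Figure D5:**
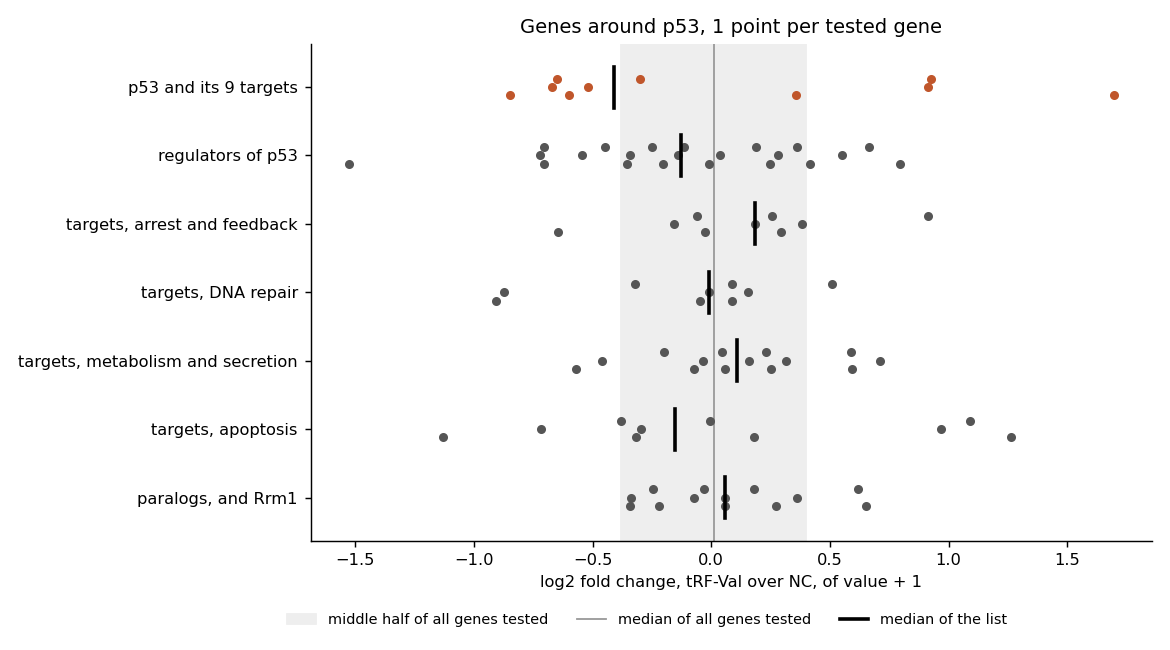
Log2 fold change of tRF-Val over NC (horizontal axis, of value + 1), 1 point per tested gene, for p53 and its 9 targets and for 6 lists of genes around p53, with the median of each list, the median of all genes tested and their interquartile range. The medians of the 6 lists lie between -0.15 and 0.18, and that of the 10 genes at -0.41. With length and GC content corrected the median of the 10 was -0.039, and those of the lists were not computed.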

How the data were processed

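The submitters' processing notes name the tools cutadapt, HISAT2 (2.1.0) and StringTie and the human build GRCh38, without settings. Each deposited value is a signal, an abundance of 1 transcript in 1 library that the authors scaled to that library, and not a read number, so limma was used on logged values. Of 30813 rows, 9210 carry human IDs and were not used. Of 21603 mouse rows 21558 matched GENCODE M21 (GRCm38) without their version. Each has a mean of at least 0.5 in 1 group.

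Values were added per symbol, genes with a mean of at least 1 kept, and log2(value + 1) fitted with limma 3.58.1 in R 4.3.3 (trend and robust moderation, no covariate), two-sided with Benjamini-Hochberg adjustment at 0.05. Length and GC content were weighted by abundance; the correction removes each library's loess trend (span 0.3). On simulated data with 10301 genes the fit recovered 84.5% of genes changed by 1 on the log2 scale, with 7 false calls. These figures hold for the simulated data only. They do not give the share of such changes that would be found in the deposited libraries, whose values also went with GC content and transcript length.

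The genes and lists were chosen with earlier results of these data known. Named are all 10 genes, any list gene that passed, and the 3 with the smallest p of each list. Sequences came from M21 and RefSeq. Alternatives are given in the closing section; 1 was added after the data were seen.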

Additional observations from a re-analysis of the deposited data

How the results depend on the processing

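Over 15 alternatives for each of the 10 genes, 138 of 150 log2 fold changes kept their sign and their side of the threshold, 8 newly passed and 4 reversed. The reversals were Trp53, at -0.14 without NC 3 (0.24 to 0.62 with any other library left out) and -0.26 without NC 3 and with length and GC content corrected, and Zmat3, at 0.17 with length and GC content corrected and 0.16 with both; the cause was not tested. The alternative that combines both steps was chosen after seeing the data.

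Calls over all genes (6 higher, 21 lower) were 2 and 3 with a pseudocount of 0.1, 15 higher with libraries scaled to a common median, 22 and 186 with rescaling without mitochondrial transcripts, 21 and 35 with length and GC content corrected, 38 lower without trend and robust moderation, 62 and 52 without NC 3 and with the correction, and 0 to 284 higher and 3 to 309 lower with 1 library left out. Over transcripts (49 higher, 137 lower) they were 72 lower with a mean of at least 2, 75 higher with the correction, 159 higher without NC 3 and with the correction, and 13 to 152 higher and 31 to 254 lower with 1 library left out. The median of the 10 genes (-0.41) was -0.63 with rescaling, -0.039 with the correction, -0.14 with the correction and without NC 3, and -0.44 to -0.28 with 1 library left out. Of the 10 genes 0 passed with all libraries, 1 with rescaling, 1 with the correction, 2 with the correction and without NC 3, and 0 to 3 with 1 library left out; of their transcripts 0, 1 with rescaling and 0 to 1 with 1 library left out.

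With the replicate number as a block the calls were 0 and 0 over genes and 0 and 0 over transcripts. Same-numbered libraries did not deviate together, with r of -0.0297, 0.0161 and -0.00948 for numbers 1, 2 and 3, so the numbers were not taken as pairs; tRF-Val 1 correlated best with NC 3 (0.0439). Depth is unknown, so no limit of detection can be given.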

Other observations

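Paralogs of the 10 genes, with Rrm1, a partner subunit and no paralog, were read from the same fit. Of 13 tested, 0 passed by limma, where 0.259% of all genes did, and at an unadjusted p under 0.05 there were 1 higher and 0 lower, below the shares of all genes (12.2% and 15.6%). The 1 was Phlda1, which shares the lipid-binding domain of Phlda3 and was at 91.6, 101 and 99.9 across tRF-Val 1, 2 and 3, against 61.2, 62.8 and 61.1 across NC 1, 2 and 3 (log2 fold change 0.65, adjusted p 0.0733). NC 3 did not stand apart in this gene. Rrm1, the large subunit of ribonucleotide reductase that pairs with Rrm2b, was at 76.2 ± 9.02 in tRF-Val and 96.2 ± 5.72 in NC (SD, n = 3 each, adjusted p 0.192), and Trp53inp2, which acts in autophagy, at 13.2 ± 2.36 and 8.56 ± 3.04 (adjusted p 0.221).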
